A study of Oryza sativa Japonica Group with 96 samples.

Results

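The comparison described here is that of 2 transformed rice lines at 0 h, when dexamethasone was added to the medium, and it rests on 6 of 96 arrays, 3 of line DXC and 3 of line DX. Members were taken by array title, line and hour, with nothing measured entering the choice, and all 36643 features of the array were compared. DXC plants were crl1 mutants of cultivar Taichung 65 that carried the vector pINDEX2 with the CRL1 gene placed under dexamethasone control, and DX plants were crl1 mutants of the same cultivar with the empty vector. Seedlings of both lines had grown for 5 days with 14 h of daylight and had rested for 24 h in flasks. The inducer, at 1 µM and washed out after 5 h, was then given to both lines, and stem bases were collected every 3 h up to 45 h. Each array read a pool of several stem bases from 1 of 3 independent experiments, and experiments of equal number paired the lines.

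Crown roots of rice arise from the stem base, and CRL1 encodes a transcription factor of the LBD family without which the crl1 mutant forms no crown roots. In pINDEX2 a steroid-activated transcription factor turns on the inserted gene when dexamethasone enters the cell, so that before the inducer the lines differ by design in the inserted cassette. DXC is a single transformed line, so the place of the insertion and the history of the line through transformation cannot be told apart from the transgene. The annotation used here tied no feature to CRL1, and its own level at 0 h was not analysed here.

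The 6 arrays were alike in level and differed in spread. Their medians all lay between 4.66 and 4.71 log2 units, and the correlation between any 2 of them was 0.928 to 0.980. The SD over features was 1.63, 1.65 and 1.65 in DXC and 1.51, 1.60 and 1.54 in DX, so that every DXC array was more spread than every DX array. With this, the 0 h difference followed the level of a feature (r = 0.29 across 36643 features): its median was -0.09 in the third of features with the lowest levels and 0.21 in the third with the highest, against -0.03 and 0.04 after quantile normalization. Among tissue markers of green tissue, the chlorophyll-binding protein gene CAB2R stood at 6.40 to 6.59 in DXC and 5.85 to 6.25 in DX without overlap, while CAB1R (6.35 to 6.56 in DXC and 5.74 to 6.41 in DX) and RBCS1, a Rubisco small subunit gene (5.32 to 5.62 in DXC and 5.07 to 5.68 in DX), overlapped. The shoot meristem gene OSH1 stood at 5.44 to 5.65 in DXC and 5.08 to 5.29 in DX, while OSH10 of the same KNOX family had a difference of -0.73. Neither was called (limma adjusted p = 0.334 for OSH1 and 0.239 for OSH10), and 5 of 11 KNOX features were above 0. The expansin gene EXP2 stood at 7.61 to 8.19 in DXC and 7.10 to 8.00 in DX. Of the genes of seed remains, the storage gene GLUA-1 stood at 2.64 to 2.94 in DXC and 2.89 to 3.35 in DX, and the amylase gene AMY1.1 at 2.35 to 2.77 in DXC and 2.33 to 2.59 in DX, where the lowest value of the whole table was 1.82. In such pools fewer cells of a type and less RNA per cell cannot be told apart.

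Few transcripts were called different before induction, and each of these calls drew on the spread between experiments at all hours. In all, 13 of 36643 features were called at 0 h (0.0355%; limma on the paired differences, Benjamini-Hochberg adjusted p under 0.05), 6 of them higher (0.0164%) and 7 lower (0.0191%) in DXC. In all 13 the 3 values of DXC lay outside the range of the 3 values of DX, as they did in 7732 features (21.1%). An unadjusted p under 0.05 was reached by 5417 features (14.8%). Only 4 of the 13 have a gene symbol, LOC4331398, LOC4333329, LOC9266913 and LOC4334970, none of which has a named function in the tables used here. The other 9 (69.2%, against 33.8% of all features) have no symbol and are given by feature number. Features 16082307 and 16094745 held identical values on every array, which leaves 12 distinct profiles.

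The leading higher transcript was LOC4331398, a protein-coding gene. Its log2 value at 0 h was 8.24, 8.25 and 8.04 in DXC (experiments 1, 2 and 3), against 5.54, 6.71 and 5.66 in DX. The lines were far apart in all 3 experiments, with DX of experiment 2 standing above the other DX arrays. The difference was 2.21 (SE 0.42, n = 3 experiments; limma adjusted p = 0.0234), or 4.62-fold. LOC4333329, also protein-coding, had 6.17, 5.71 and 6.04 in DXC, against 4.95, 4.74 and 4.98 in DX. These groups did not overlap either, and each DXC array was above its DX partner by a like amount. Its difference was 1.08 (SE 0.18; adjusted p = 0.00449), or 2.12-fold.

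Among lower transcripts LOC9266913, a protein-coding gene, was the most sharply defined. It stood at 3.86, 3.74 and 3.96 in DXC, against 5.09, 5.24 and 5.09 in DX. The SD between experiments was 0.11 in DXC and 0.09 in DX, and the groups were far from overlapping. The difference was -1.29 (SE 0.16; adjusted p = 8.8e-05), so that the transcript was 2.44-fold lower in DXC. LOC4334970, annotated as a pseudogene, had 4.36, 4.24 and 4.14 in DXC, against 4.90, 5.41 and 5.28 in DX. DX of experiment 1 came nearest to the DXC values without reaching them, and the difference was -0.95 (SE 0.18; adjusted p = 0.0197).

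The largest lower difference belonged to feature 16311747, which has no symbol and, like the other numbered features, was singled out after its values were seen. It stood at 5.07, 3.62 and 4.59 in DXC, against 6.94, 6.79 and 6.31 in DX. DXC varied more here than DX, and the difference of -2.25 (SE 0.32; adjusted p = 0.00069) made it 4.77-fold lower. Feature 16130360 had a difference of -1.46 (adjusted p = 0.00518), with 3.89 ± 0.05 in DXC and 5.35 ± 0.28 in DX (mean ± SD, n = 3 each). Features 16219274 and 16158193 were higher by 1.54 and 1.37 (adjusted p = 0.00449 and 0.00727). Feature 16257748 was the least even of the called ones: it stood at 3.22, 2.94 and 3.00 in DXC, against 4.48, 3.44 and 5.51 in DX, a difference of -1.42 (adjusted p = 0.0407) that was smallest in experiment 2.

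**Figure D1:**
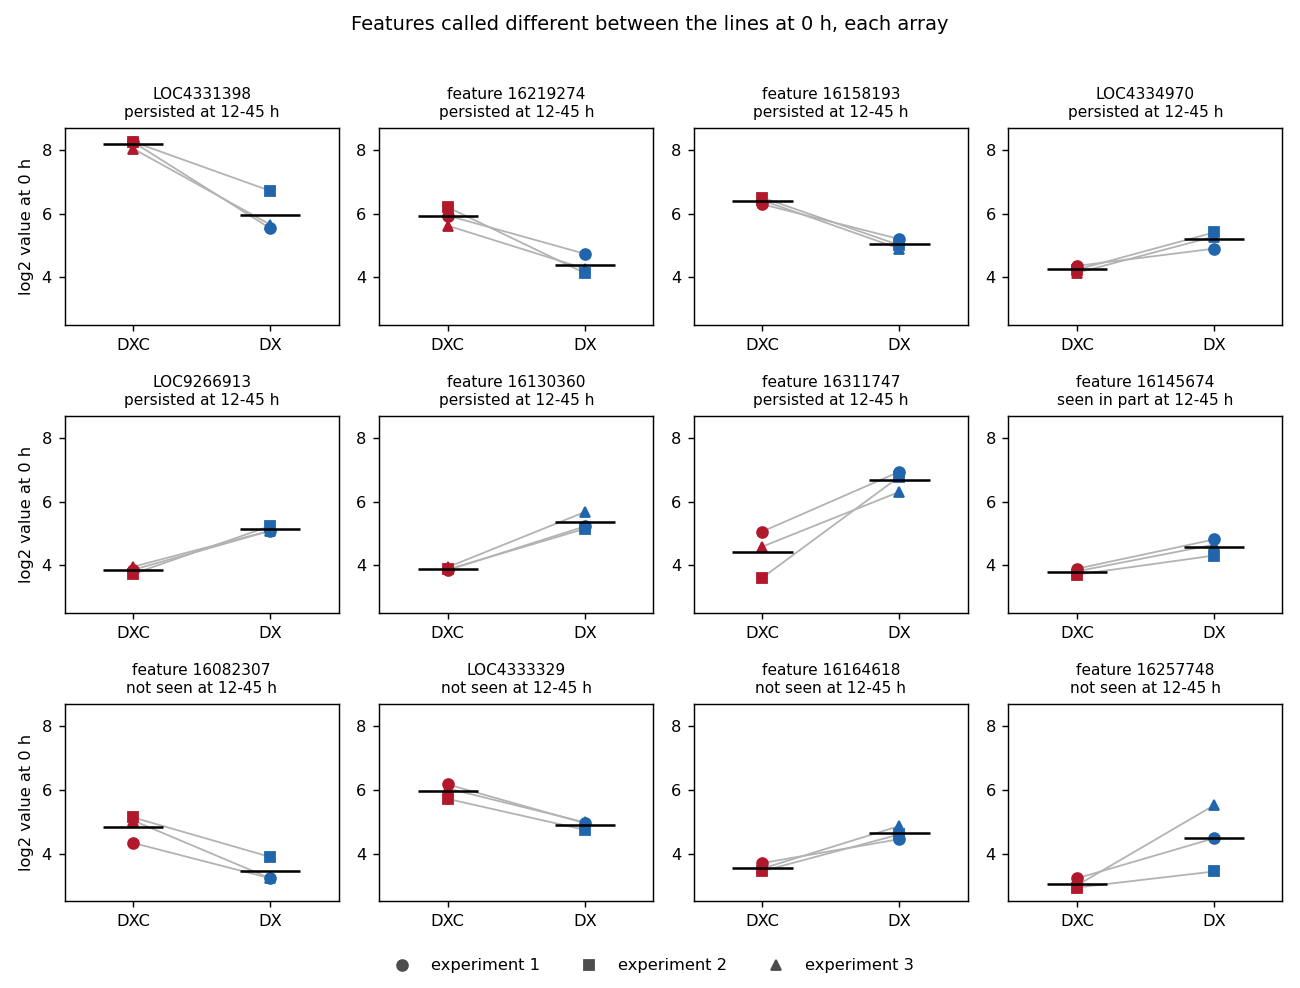
Log2 values at 0 h of the 12 distinct profiles called different between the lines, 1 panel each, with DXC on the left and DX on the right. Symbols mark the 3 experiments, grey lines join the arrays of 1 experiment and black bars are group means; in every panel the 3 DXC values lie apart from the 3 DX values, by 2.21 on average for LOC4331398 and by -2.25 for feature 16311747.

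The calls depended on the other hours for their error and mostly on having all 3 experiments. With the error taken from the 3 differences of 0 h alone, 4 features were called, 0 of them among the 13, whose adjusted p was then 0.168 to 0.212 (6587 features had an unadjusted p under 0.05). The 4, singled out after their values were seen, were all higher in DXC, by 3.80 (feature 16157006), 3.28 (LOC4340085), 2.24 (LOC4338539) and 2.16 (feature 16116796), with adjusted p of 0.206 to 0.316 when all hours gave the error. Without experiment 1, 0 features were called (2621 with an unadjusted p under 0.05), and the adjusted p of the 13 was 0.0944 to 0.456. Without experiment 2 there were 9 calls, of which LOC9266913 (adjusted p = 0.0384) and feature 16257748 (0.0202) were among the 13. Without experiment 3 the 5 called were LOC4331398 (adjusted p = 0.0173), LOC9266913 (0.00999) and features 16219274 (0.00999), 16130360 (0.0497) and 16311747 (0.00303). Compared without pairing by experiment, 8 of the 13 were called, and those that were not are LOC4334970 (adjusted p = 0.0647) and features 16082307 and 16094745 (0.0611), 16164618 (0.0540) and 16257748 (0.112).

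The arrays of 12 to 45 h, which share none with 0 h, showed which of these differences lasted. They also gave part of the error of the 0 h calls. A feature with a small spread at these hours was thus favoured in both calls, which are not independent. A 0 h call was taken to persist where the mean difference over 12 to 45 h was itself called, had the same sign and was at least 0.5 of the 0 h difference, a rule met by 279 of all 36643 features (0.761%). Of the 13 features, 7 persisted (3 higher and 4 lower), 1 was seen in part and 5 were not seen. The later calls were made on plants that had received the inducer, so a difference that lasted and a difference newly made by the induction are not separated by these values alone.

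Of the named genes LOC4331398, LOC9266913 and LOC4334970 persisted. LOC4331398 kept a difference of 1.94 over 12 to 45 h (adjusted p = 0.000374) and was called at 14 of the 15 hours from 3 to 45 h, missing at 30 h (difference 1.65, adjusted p = 0.051). Its hourly difference ranged between 1.65 and 2.26 from 12 to 45 h, against 2.21 at 0 h. LOC9266913 was lower at all 15 hours, by -1.23 over 12 to 45 h (adjusted p = 7.4e-06), with its smallest difference at 33 h (-0.78) and its largest at 12 h (-1.62). LOC4334970 was also lower at all 15 hours, by -0.92 (adjusted p = 4.1e-05), and its 0 h difference minus this was -0.03 (adjusted p = 0.956). With any 1 experiment removed, the later calls of all 3 genes held, at adjusted p from 0.000786 to 0.0367.

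The remaining persisting features were called at all 15 hours. Feature 16311747 stood at -2.31 over 12 to 45 h, feature 16130360 at -1.25, feature 16219274 at 1.82 and feature 16158193 at 1.24 (adjusted p from 1.1e-05 to 0.000138). At 24 h, the same time of day as 0 h, feature 16311747 averaged 5.17 in DXC and 6.94 in DX. At 0 h it had averaged 4.42 in DXC and 6.68 in DX. In none of the 7 was the 0 h difference called different from that of 12 to 45 h (adjusted p from 0.611 to 0.956).

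The differences that were not seen later were as large at 0 h as several that lasted. LOC4333329 had a difference of 0.32 at 3 h and of -0.18 at 6 h, and over 12 to 45 h it was 0.17 (adjusted p = 0.535). At 0 h its mean log2 value was 5.98 in DXC, against 4.89 in DX. At 6 h it was 5.32 in DXC, against 5.50 in DX. Features 16082307 and 16094745, higher in DXC by 1.39 at 0 h (4.83 ± 0.44 in DXC and 3.45 ± 0.39 in DX), were at 0.05 over 12 to 45 h. Feature 16164618 was at -1.08 and then -0.09. Feature 16257748 was still lower at 3 h (-1.13, adjusted p = 0.0478) and at 6 h (-1.24, adjusted p = 0.0258), was not called at 9 h (-0.85, adjusted p = 0.157), and was at -0.03 over 12 to 45 h. At 0 h it averaged 3.05 in DXC, against 4.48 in DX. At 12 h it averaged 3.28 in DXC, against 3.49 in DX.

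For these 5 features the 0 h difference was called different from the mean of 12 to 45 h, by 1.34 (adjusted p = 0.00999) for both identical features, 0.91 (0.0181) for LOC4333329, -0.99 (0.0303) for feature 16164618 and -1.39 (0.0269) for feature 16257748. Because these features were picked for a large 0 h value, such contrasts are inflated by the choice. With 1 experiment left out they were not called, at adjusted p from 0.0720 to 0.356, except feature 16257748 without experiment 2 (0.0466). Feature 16145674, lower by -0.78 at 0 h, was the case in between: it was still lower over 12 to 45 h, by -0.33 (adjusted p = 0.0395, but 0.143 to 0.517 with 1 experiment left out).

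**Figure D2:**
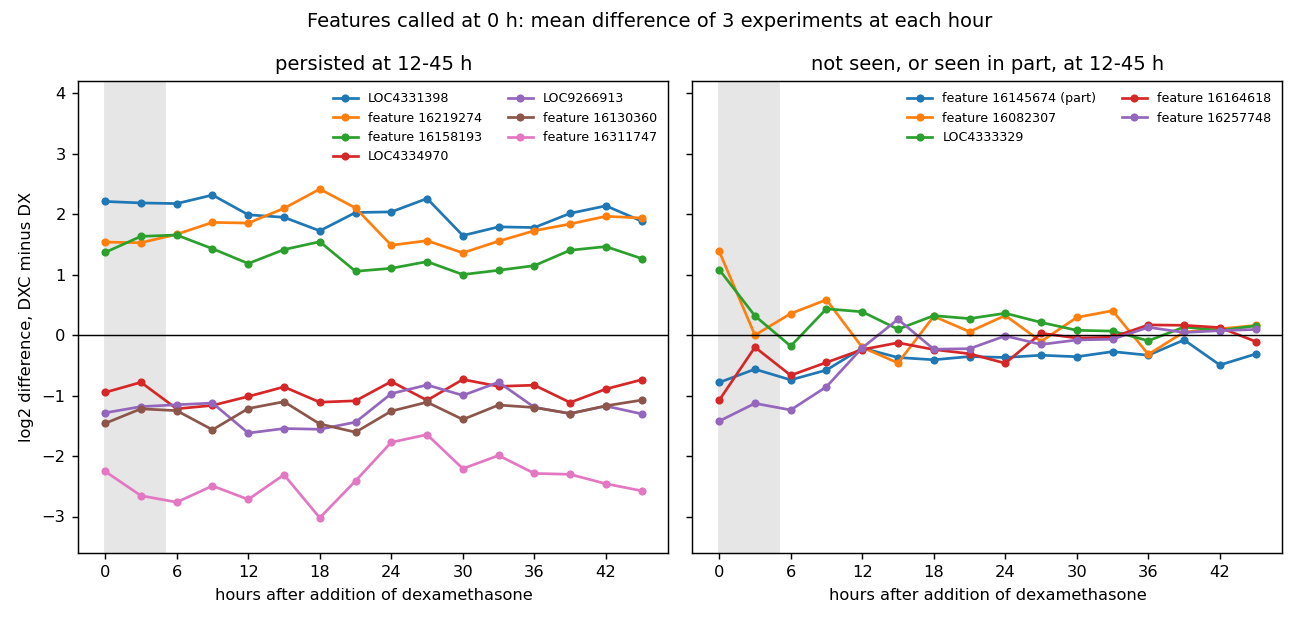
Mean log2 difference DXC minus DX of 3 experiments at each hour (0 to 45 h) for the features called at 0 h, with those that persisted on the left and the others on the right; the grey band marks the 5 h with dexamethasone. The 7 persisting features keep their distance from 0 at every hour, while the others lie between -0.50 and 0.40 from 12 h on.

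Beyond the called features, the next ones by p were taken up to 10 named genes in each direction, and none of these 16 was called at 0 h. Other fits called some of them: with the array set as a random block LOC4331781 (adjusted p = 0.0198), LOC4344908 (0.0198), LOC4340855 (0.0222), LOC9270965 (0.0368) and LOC4339955 (0.0368), and with the experiment as an additive term LOC4339955 (0.0101), LOC4341605 (0.0301), LOC9270965 (0.0360) and LOC4331781 (0.0391). LOC4339955 was also called after quantile normalization (0.0395) and without experiment 2 (0.0380), and LOC4331781 without experiment 2 (0.0486). The largest difference among the 16 was that of LOC4331781, which stood at 7.98, 6.67 and 7.29 in DXC, against 4.59, 4.25 and 4.59 in DX. The lines were further apart than for any called feature, by 2.84 (7.16-fold), and DXC varied between experiments. With the error taken from all hours its SE was 0.64 and its adjusted p 0.0949. From the 3 differences of 0 h alone its adjusted p was 0.0629. Over 12 to 45 h its difference of 2.72 was called (adjusted p = 0.000481, but 0.0652 without experiment 1), and its highest value was 3.68 at 24 h. LOC4332456, at 6.94, 6.86 and 7.50 in DXC and 5.77, 6.16 and 5.18 in DX, had 1.39 at 0 h (adjusted p = 0.0783) and 0.79 later (adjusted p = 0.00266, but 0.185 without experiment 1). LOC4325576 (1.05) and LOC4340855 (1.00) were likewise not called at 0 h and met the later criteria, with 0.57 and 0.52 over 12 to 45 h (adjusted p = 0.0101 and 0.0419, but 0.145 and 0.631 without experiment 1, and 0.162 and 0.353 without experiment 3).

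The other 12 named genes met no later criterion. LOC4341605 had 6.29, 5.79 and 5.89 in DXC, against 6.44, 7.01 and 7.77 in DX. DX varied by over 1 log2 unit between experiments, while all DXC values were below all DX values. Its difference of -1.08 at 0 h (adjusted p = 0.0605, and 0.0368 without pairing by experiment) stood beside 0.06 over 12 to 45 h. LOC4339955 had -0.79 (adjusted p = 0.0804, and 0.0201 without pairing) and -0.03 later. LOC4344908, a long noncoding RNA gene, had -1.30 and -0.06, and LOC4326722 had 0.93 and -0.17. LOC9270965, LOC4346297 and LOC4339149 stood between 0.63 and 0.86 at 0 h. LOC9269307, LOC4346693, LOC4350133, LOC4339737 and the pseudogene LOC4329369 stood between -0.78 and -0.50, and between -0.08 and 0.02 over 12 to 45 h.

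The 5 genes on either side in the RefSeq gene order were read for the 20 genes named at 0 h and for LOC4340662 and LOC4327617. They held between 2 and 10 features, of which 0 were called at 0 h. Over all features 0.0355% were called, so a count of 0 among so few says little about the neighbourhood. The neighbours of LOC4331398 lay between 0.00 and 0.38 and those of LOC9266913 between -0.49 and 0.29. Among the neighbours of LOC4334970 the highest value was 0.96, opposite in sign to LOC4334970 itself. Over 12 to 45 h LOC4325576, LOC4340855, LOC4339149, LOC9269307 and LOC4344908 each had 1 neighbour called, where 1.63% of all features were called. All 7 neighbours of LOC4340855 were above 0 at 0 h, as it was itself, where 54.9% of all features were above 0. Their highest value was 0.72 at 0 h and 0.58 over 12 to 45 h. LOC4331781 and LOC4331398 are on 1 chromosome but 407 genes apart.

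Over all features, the line difference at 0 h was more alike to that of the following 9 h, which share its array set, than to that of later hours. Across 36643 features its Pearson correlation with the difference at 3, 6 and 9 h was 0.74, 0.66 and 0.64. From 12 to 45 h it was -0.12 to 0.35, and 0.08 at 24 h. Features are not independent replicates, and array summaries moved together in sets of 4 neighbouring hours (0 to 9 h, 12 to 21 h, 24 to 33 h, 36 to 45 h), which the labels do not describe as batches. The hours 0 to 9 h thus share a set, within which the residual differences of an experiment correlated by 0.40 (consensus over features), and the part of the set in the likeness of 3 to 9 h to 0 h was not tested. After quantile normalization the values were 0.62 to 0.71 for 3 to 9 h and -0.08 to 0.32 for 12 to 45 h.

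The experiments took unequal parts in this. Within experiment 1 the 0 h difference correlated with that of 3, 6 and 9 h by 0.71, 0.66 and 0.64, within experiment 3 by 0.62, 0.57 and 0.60, and within experiment 2 by 0.18, 0.17 and 0.05. At 0 h itself the differences of 2 experiments correlated by 0.24 to 0.42. From 12 to 45 h the mean correlation with 0 h was 0.09 within an experiment (-0.39 to 0.43) and 0.03 between experiments (-0.57 to 0.58). These means thus cover values of both signs. From 24 to 33 h the values were 0.40 to 0.43 within experiment 3 and -0.24 to -0.19 within experiment 2.

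**Figure D3:**
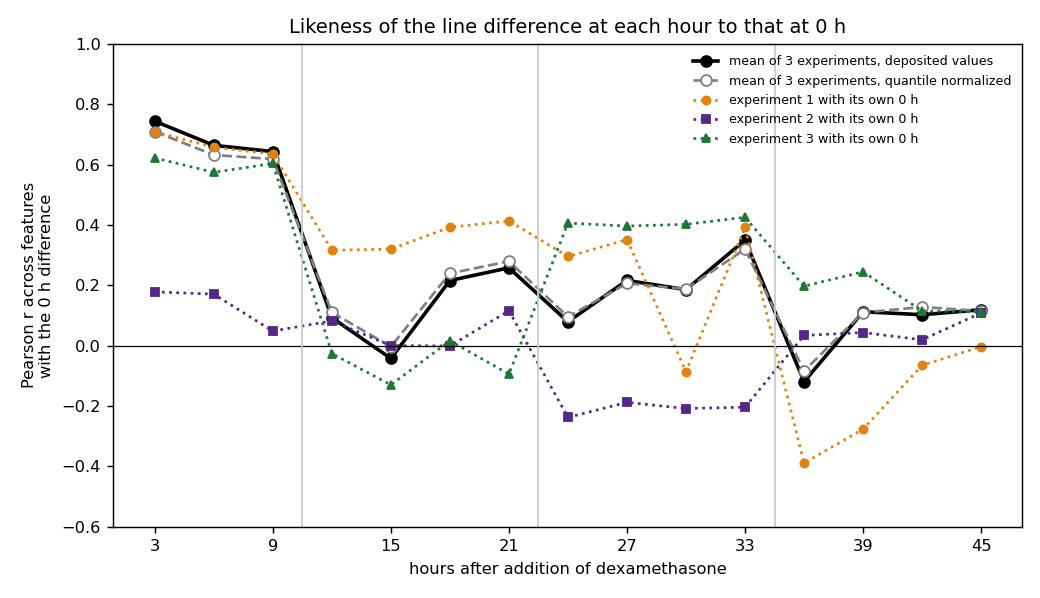
Pearson correlation across 36643 features between the line difference at 0 h and that at each later hour (3 to 45 h), for the mean of 3 experiments in deposited and quantile-normalized values and within each experiment; vertical lines part the sets of 4 hours. The mean correlation is 0.64 to 0.74 up to 9 h and -0.12 to 0.35 from 12 h on, and experiment 2 lies below the others up to 9 h.

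The 50 higher features of lowest p at 0 h had a median difference of 0.95 at 0 h, 0.41 over 3 to 9 h and 0.07 over 12 to 45 h, and the 50 lower ones -0.79, -0.45 and -0.03. By the criteria above, 8 of the 50 higher and 6 of the 50 lower features persisted. A value picked as extreme at 0 h is expected to be smaller on other arrays by the choice alone, so the drop is no measure of change.

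**Figure D4:**
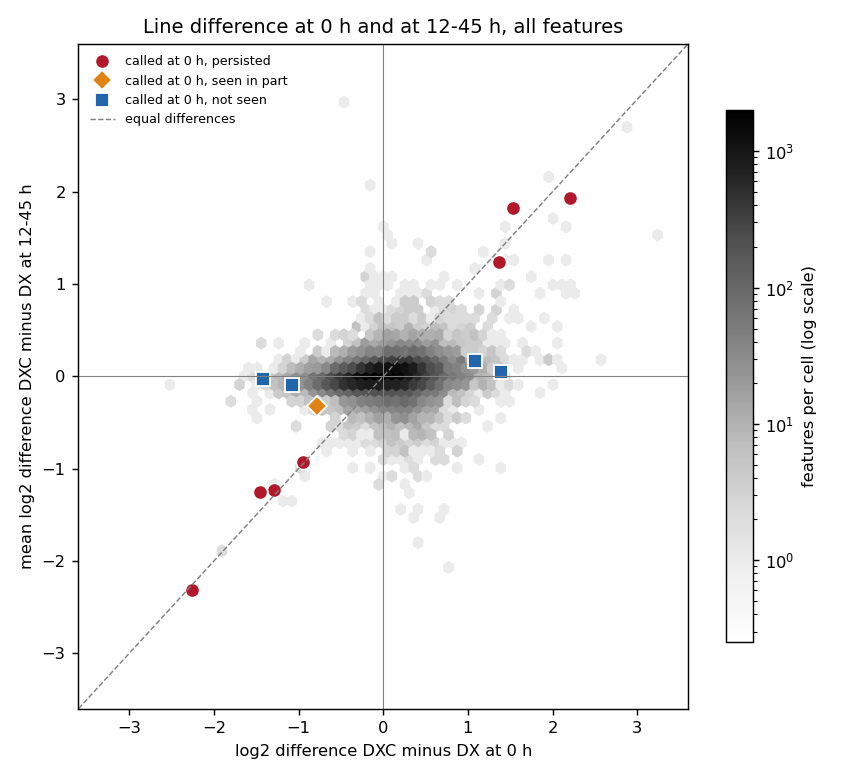
Log2 difference DXC minus DX at 0 h (horizontal) and its mean over 12 to 45 h (vertical) for all 36643 features, with grey shading for the number of features and coloured marks for the 12 distinct profiles called at 0 h. The 7 persisting features lie near the line of equal differences, from -2.25 to 2.21 at 0 h, and the features not seen later lie near a vertical value of 0.

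Read the other way, most features that set the lines apart later were not called at 0 h. Over 12 to 45 h the lines differed in 596 features (1.63%), of which 271 were higher in DXC and 325 lower. At 0 h 186 of the 271 (68.6%) and 96 of the 325 (29.5%) had the same sign, against 59.5% of all features. The other 229 of the 325 (70.5%) were above 0 at 0 h, against 54.9% of all features. An unadjusted limma p under 0.05 at 0 h, of either sign, was reached by 21.0% of the 271 and 18.2% of the 325, against 14.8% of all features. With the same sign as well, 68 of all 596 reached it. In all 8 of the 596 were called at 0 h, where 0.0355% of all features were called. The count of 596 was 58 without experiment 1 and 94 without experiment 3. The balance of directions was not stable: 293 were higher and 175 lower without experiment 2, and 2017 higher and 1801 lower when the mean of the 12 hourly coefficients was tested.

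A smaller group of 10 features (0.0273%) was called with 1 sign at every hour from 12 to 45 h, and 6 of these were among the 13 called at 0 h. LOC4327617, protein-coding, was at 6.82, 7.08 and 6.80 in DXC, against 7.73, 8.25 and 7.95 in DX, with no overlap. Its difference of -1.07 at 0 h was not called (adjusted p = 0.151; after quantile normalization -1.27, adjusted p = 0.000873), and it was -1.32 over 12 to 45 h (adjusted p = 0.000264, but 0.0553 without experiment 1). LOC4340662, protein-coding, had 7.05, 7.41 and 7.39 in DXC, against 6.42, 7.07 and 7.10 in DX, where DXC of experiment 1 stood below DX of experiments 2 and 3. Its difference was 0.42 at 0 h (adjusted p = 0.354) and 1.41 over 12 to 45 h. The 2 exceptions to a shared sign, picked out after their values were seen, were LOC9271993, at -0.42 and 2.95, and the transcribed pseudogene LOC4351404, at -0.20 and 2.06, at 0 h and over 12 to 45 h in that order. With every feature turned to its later sign, the 0 h median of the 10 was 1.18.

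Transcripts that were higher in DXC soon after the inducer were read at 0 h as well. The hours 6 and 9 h share the array set of 0 h, and over all features their differences correlated with it by 0.66 and 0.64. Values above 0 at 0 h are therefore favoured by the choice itself, and the size of that part was not tested. The 394 features (1.08%) called higher at 6 and at 9 h but at no hour from 36 to 45 h had a median 0 h difference of 0.17, against 0.04 over all features, and 314 of them (79.7%) were above 0, against 54.9% of all features. Of the 394, 0 were called at 0 h by limma, and 47 (11.9%, against 14.8% of all features) had an unadjusted p under 0.05. The median was 0.28, 0.08 and 0.22 in experiments 1, 2 and 3. Their median log2 value at 0 h was 5.66 in DXC and 5.49 in DX, against 4.68 in DXC and 4.69 in DX over all features, and values in that range ran higher in DXC as described above. Chosen and read after quantile normalization, the group held 295 features with a median of 0.11. Groups chosen and read without experiment 1, 2 or 3 held 69, 2247 and 96 features. Their medians were 0.077, 0.43 and 0.083 in that order. The 5 leading genes of this group were at -0.23 (LOC4330584), -0.88 (LOC4324857), 0.57 (LOC4336260), 0.35 (LOC4333262) and 0.23 (LOC4342270) at 0 h, with adjusted p from 0.372 to 0.772.

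The contrast of 0 h with 12 to 45 h, taken over all features, called 116 (0.317%), 88 with a higher and 28 with a lower difference at 0 h, and 5 of the 116 were called at 0 h itself. For the 88 the median difference was 0.56 at 0 h, 0.04 over 3 to 9 h, and then -0.54, -0.43 and -0.55 in the 3 later sets. All 88 were above 0 at 0 h and 85 of them below 0 over 12 to 45 h, signs that the choice of the contrast favours. The count fell to 56 after quantile normalization, of which 55 were among the 116, and to 3 to 6 with any 1 experiment left out. This contrast took the hours of an array set as independent. With the array set as a random block 82 were called, of which 72 were among the 116.

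Of the genes named from the gene lists given below, WOX11, PRX74 and IAA15 were called in this contrast. Other list members are not reported for it. PRX74 and IAA15 were picked by their 0 h p, so their contrasts are inflated by the choice. WOX11, a homeobox gene that promotes crown root growth, had 5.33, 5.92 and 6.11 in DXC, against 5.33, 5.24 and 5.23 in DX. The lines were level in experiment 1 and DXC was above DX in the others, and the 0 h difference of 0.52 was not called (adjusted p = 0.285). Over 12 to 45 h it was -0.72 (adjusted p = 0.00152, but 0.0585 and 0.0596 without experiments 1 and 3). The 0 h difference was higher than this by 1.24 (adjusted p = 0.00366, 0.0181 without experiment 1, but 0.167 and 0.231 without experiments 2 and 3). The class III peroxidase gene PRX74 stood at 0.75 (adjusted p = 0.304) and -1.44 (adjusted p = 0.000379) at 0 h and over 12 to 45 h in that order, and IAA15, an Aux/IAA repressor gene of auxin response, at 0.43 (adjusted p = 0.227) and -0.45 (adjusted p = 0.00491, but 0.0544 to 0.221 with 1 experiment left out). Both contrasts were called (2.19, adjusted p = 0.00111, and 0.88, adjusted p = 0.00245), but with any 1 experiment left out neither was (adjusted p from 0.0584 to 0.138).

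Gene lists were matched to symbols and synonyms for 25 themes, and in each of them 0 members were called at 0 h by limma, where 0.0355% of all features were called. All 9 photosynthesis features were above 0, with a median difference of 0.46, against 0.04 over all features. The median was 0.51, 0.04 and 0.66 in experiments 1, 2 and 3, and 0.23, with 8 of 9 above 0, after quantile normalization. PSB28, a protein associated with photosystem II, had 6.28, 5.90 and 6.31 in DXC, against 5.41, 5.77 and 5.35 in DX. DXC was above DX throughout, least in experiment 2, and the difference was 0.65 (adjusted p = 0.227). CAB2R had 0.46 (adjusted p = 0.282). Over 12 to 21 h the list median was -0.02.

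Lists of genes used by growing cells were mostly above 0. All 18 features of cytosolic ribosomal proteins were above 0 (median 0.34), as were 10 of 11 of mitotic cyclins and CDKB (0.31), 8 of 9 of histone H2B (0.28) and 23 of 26 of DNA replication (0.19), where 54.9% of all features were above 0 with a median of 0.04. After quantile normalization 14 of 18, 9 of 11, 6 of 9 and 22 of 26 were above 0 in the same order, with medians of 0.08, 0.10, 0.10 and 0.11, and over 12 to 45 h the medians were 0.01, 0.05, 0.01 and 0.08. In experiments 1, 2 and 3 the median was 0.42, 0.14 and 0.42 for ribosomal proteins, 0.20, 0.25 and 0.28 for mitotic cyclins and CDKB, 0.30, 0.16 and 0.43 for histone H2B, and 0.29, -0.03 and 0.25 for DNA replication. Their members with the lowest p included RPL3, a protein of the large ribosomal subunit, at 0.44 (adjusted p = 0.315), CYCA3-1, an A-type cyclin, at 0.57 (adjusted p = 0.281), and RPA1C, a subunit of the protein that coats single-stranded DNA, at 0.44 (adjusted p = 0.299). CYCD4-1, a D-type cyclin, stood at 0.52 (adjusted p = 0.209), in a list with 9 of 10 above 0 and a median of 0.14. The part of the wider spread of DXC arrays in these medians was not tested beyond the quantile-normalized values given here.

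Several single genes had large 0 h differences that were not called, with the error taken from the spread at all hours. For PDC2, given below, the SD at 0 h was 0.16 in DXC and 0.14 in DX, and the SE of the fit was 0.39. NSHB2, a non-symbiotic haemoglobin gene of the hypoxia list (also HB2), stood at 8.52, 7.59 and 9.24 in DXC, against 6.67, 5.77 and 6.74 in DX. Each DXC array was well above all DX arrays, by 2.06 on average (SE 0.62), and the adjusted p was 0.208. PDC2, a pyruvate decarboxylase of ethanol fermentation, had 8.51, 8.58 and 8.28 in DXC, against 7.27, 7.52 and 7.50 in DX, with no overlap and a difference of 1.03 (adjusted p = 0.280). In this list 4 of 5 features were above 0, with a median of 0.33. The clock list had 6 of 6 above 0 (median 0.22, but -0.09 in experiment 2 and 0.10, with 4 of 6 above 0, after quantile normalization), with PRR95, a pseudo-response regulator, at 0.36 (adjusted p = 0.283).

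Lists of hormone and root genes had medians on both sides of 0. Of the 7 crown root regulators 2 were above 0 (median -0.06): WOX11 and IAA23, an Aux/IAA gene required in the root tip, at 0.32 (adjusted p = 0.403). QHB, which marks the quiescent centre of roots, had 4.13, 3.84 and 4.10 in DXC, against 4.26, 4.17 and 4.23 in DX. All DXC values were below all DX values, by -0.19 on average (adjusted p = 0.609). WOX10 stood at -0.48 (adjusted p = 0.281), hox14 at -0.43, the cytokinin oxidase gene CKX4 at -0.06 and the response regulator gene RR2 at -0.03. Above 0 were 19 of 28 Aux/IAA features (median 0.12), 15 of 19 of auxin response factors (0.22), 1 of 7 of auxin transport (-0.13), 3 of 10 of GH3 and SAUR (-0.11), 7 of 17 of response regulators (-0.03), 7 of 17 of cytokinin metabolism (-0.05) and 5 of 14 of gibberellin and related diterpene metabolism (-0.07). After quantile normalization the median was 0.01 for Aux/IAA, with 16 of 28 above 0, and 0.05 for auxin response factors, with 14 of 19 above 0. The list of auxin response factors had medians of 0.28, 0.07 and 0.12 in experiments 1, 2 and 3.

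Markers of other tissue and of stress lay on either side of 0. Heat shock genes had 16 of 46 above 0 (median -0.10). HSP19.0, a small heat shock protein gene, was at -0.78 (adjusted p = 0.197) and HSP17.9A at 0.46 (adjusted p = 0.284). Seed storage and amylase genes, a sign of seed remains, had 3 of 16 above 0 (median -0.09). KNOX genes of the shoot meristem had 5 of 11 (median -0.04), with OSH10 at -0.73 (adjusted p = 0.239) and OSH1 at 0.38 (adjusted p = 0.334). Jasmonate genes had 18 of 36 (median -0.01). JAZ2, a repressor of jasmonate signalling, was at -0.93 (adjusted p = 0.280) and JAZ3 at 0.37 (adjusted p = 0.267). Wall loosening genes had 24 of 46 (median 0.02), secondary wall genes 9 of 12 (0.08), pathogenesis-related genes 4 of 8 (-0.04), the WOX family 4 of 8 (0.00) and class III peroxidases 2 of 2 (0.44).

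**Figure D5:**
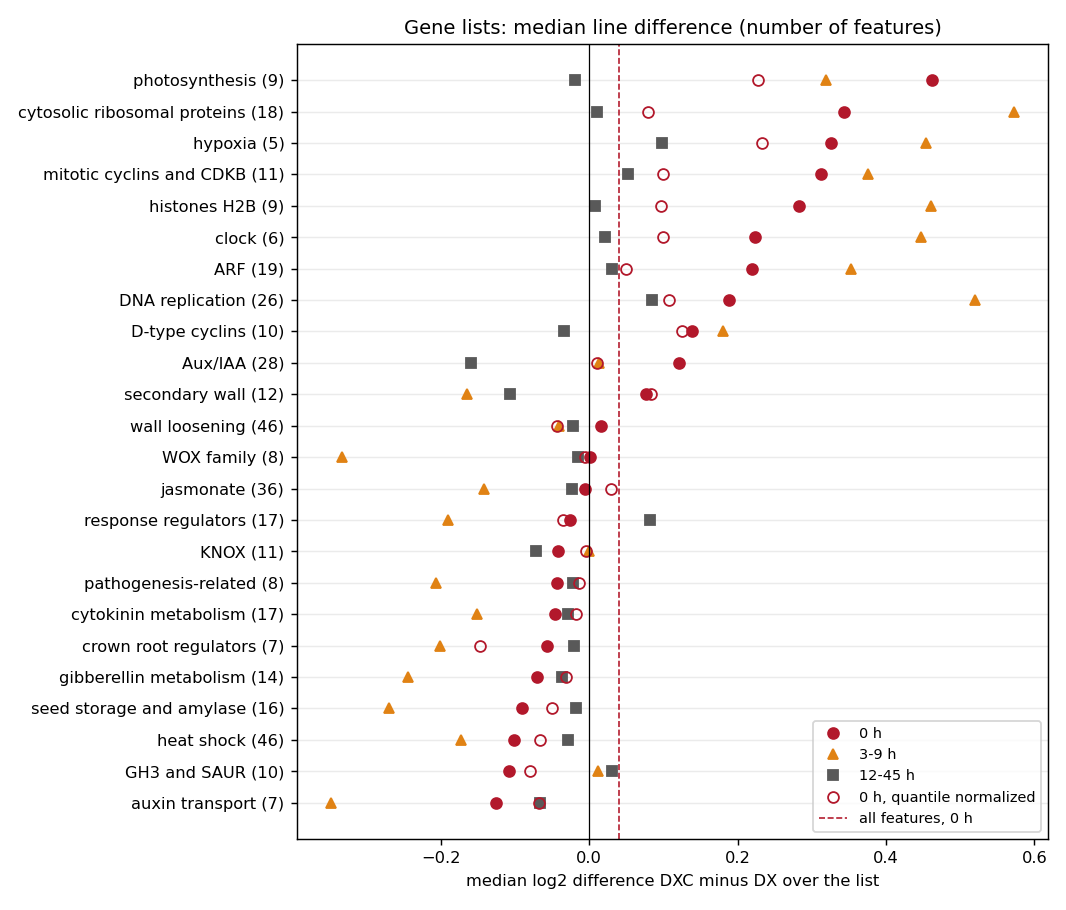
Median log2 difference DXC minus DX over the features of each list with more than 2 of them, at 0 h, over 3 to 9 h and over 12 to 45 h, with the quantile-normalized 0 h median as an open circle and the 0 h median of all features (0.04) as a dashed line. Photosynthesis and ribosomal protein lists have the highest 0 h medians, 0.46 and 0.34, and these are 0.23 and 0.08 after quantile normalization.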

How the data were processed

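Gene expression was measured on Affymetrix arrays, 1 per sample. The deposited table held log2 values of 36643 features, normalized by the authors with GCRMA, per the submitters' processing notes, which state no version (settings: not given in the sources used here). Values ran from 1.82 to 12.92, without detection calls, and precision is limited by how many arrays there are. Columns that belong to no sample numbered 0. The platform annotation gave 1 symbol to 24161 features, all found in NCBI's RefSeq table (assembly ASM3414082v1), consulted for synonyms, biotypes and gene order only.

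Differences DXC minus DX were formed within each experiment and hour, since the series design describes the replicate numbers as independent experiments. Limma 3.58.1 (R 4.3.3; lmFit, eBayes with a trend on level) was fitted to 48 differences with 1 coefficient per hour (32 residual degrees of freedom), adjusting by Benjamini-Hochberg over all features, and over 15 hours together for single later hours. The mean over 12 to 45 h was tested on differences averaged in sets of 4 hours. The contrast of 0 h with 12 to 45 h used the 48 hourly differences without this averaging. Deviations of equally numbered arrays correlated by 0.05 on average (48 pairs, -0.64 to 0.52; 16 over 0.1; 0.16 at 0 h), and of other numbers by -0.03. The fits were tested on simulated data.

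Named genes had 1 symbol and 1 sign in all 3 experiments: at 0 h every called one, and the next by p up to 10 in each direction; up to 5 in each direction of those called at every hour from 12 to 45 h; the 5 largest at 6 and 9 h; up to 2 of lowest p from each list; and every crown root regulator, whatever its sign. The comparison, the lists and this rule were chosen with earlier results of these data known. No other split of the samples was made.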

Additional observations from a re-analysis of the deposited data

Results flagged for a closer look

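The line difference at 0 h was tested against that of 12 to 45 h, and 116 features were called, 5 of them among the 13 called at 0 h. Among the named and called features the difference was higher at 0 h by 2.19 for PRX74, by 1.34 each for features 16082307 and 16094745, which hold identical values, by 1.24 for WOX11, by 1.09 for LOC4326722, by 0.91 for LOC4333329, by 0.88 for IAA15 and by 0.67 for LOC9270965 (limma adjusted p from 0.00111 to 0.0265). It was lower at 0 h, with values of -0.51 for LOC4350133, -0.66 for LOC4346693, -0.76 for LOC4339955, -0.80 for LOC9269307, -0.99 for feature 16164618 and for LOC4340662, -1.14 for LOC4341605, -1.39 for feature 16257748, -2.25 for LOC4351404 and -3.36 for LOC9271993 (adjusted p from 9.66e-05 to 0.0441). LOC4340662, LOC4351404 and LOC9271993 were chosen for their values over 12 to 45 h and the others, except WOX11, by rules that read the 0 h difference, so these contrasts are inflated by the choice. Groups of 3 arrays were too small for a search for single outlying samples.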

How the results depend on the processing

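The 13 calls at 0 h became 0 without experiment 1, 9 without experiment 2 and 5 without experiment 3. Of such calls 0 to 5 persisted in place of 7. Counts of the separate tests over all features moved as well. Over 12 to 45 h 58 to 468 features were called in place of 596, and in the contrast of 0 h with 12 to 45 h 3 to 6 in place of 116. The median of the features called higher at 6 and 9 h was 0.077 to 0.43 in place of 0.17, in groups of 69 to 2247 features in place of 394. That of the features called at every hour from 12 to 45 h was 1.27 without experiment 2. Without experiment 1 or 3 no feature was left in that last group. At 0 h, 4 features were called from the 3 differences of that hour alone (0 shared with the 13; 6587 with an unadjusted p under 0.05), 6 among features above the median level (all shared) and 26 with the array set as a random block (all 13 shared). Over 12 to 45 h the mean of 12 hourly coefficients called 3818. The contrast of 0 h with 12 to 45 h called 56 after quantile normalization and 82 with the array set as a random block. Without the replicate block, the counts were 10 at 0 h (8 shared), 742 over 12 to 45 h, 6 persisted and 105 in the contrast; with the block as an additive term 19 were called at 0 h. Quantile normalization gave 17 calls at 0 h with all 13 shared, 775 over 12 to 45 h and 9 persisted, centred and scaled arrays 14, and features of identical values counted once, a setting added after seeing the data, 12. No 0 h difference of the 13 called features or of the next named genes by p changed sign in any setting. In most settings it could not. All of them had 1 sign in all 3 experiments, so leaving out an experiment could not turn the mean. Other fits of the deposited values change the error and not the difference. Only quantile normalization and the centred and scaled arrays could have turned a sign. Some members of the gene lists did: after quantile normalization 14 ribosomal protein features were above 0, in place of 18. Among the calls over 12 to 45 h those lower in DXC outnumbered the higher ones (325 and 271). This balance turned round without experiment 2 (175 and 293) and with the mean of 12 hourly coefficients (1801 and 2017). The cause of these moves was not tested, apart from the fewer experiments or features that some settings leave. No scanner background was used, so low levels have no detection limit here.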
